A study of Caenorhabditis elegans with 21 samples.

Results

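The left arm of chromosome V of Caenorhabditis elegans was taken as all windows of 500 bp on V that end at or before position 5897000 of build ce10. It comprised 11794 of the 200547 windows in the table, or 5.88%. Total RNA depleted of ribosomal RNA was sequenced from early embryos (before the bean stage, about 1 to 300 cells, grown at 20 °C). The growth time given for every library was 60 to 65 h. The authors deposited raw read counts per window without strand or gene names. Windows are named here by chromosome and first base, so that V 766001 runs from position 766001 for 500 bp. Levels are CPM, reads scaled to a common library size, after TMM normalisation, which scales libraries by their common windows.

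The 6 genotypes compared had 3 libraries each. N2 is the Bristol wild type. The lin-61 group carried lin-61(tm2649) on chromosome I, and the nrde-3 group carried nrde-3(tm1116) on X. The double mutants were nrde-3 met-2, with met-2(n4256) on III, nrde-3 set-25, with set-25(n5021) on III, and lin-61 set-25, with tm2649 and n5021. None of the mutated genes lies on V. Each gene was represented by a single allele. The labels speak of 2 independent biological replicates while there are 3 titles per genotype. The p-values therefore reflect only how far these libraries vary, which may in part be technical. Embryos were collected as a mixture of stages and tissues, and fewer cells of a type cannot be told apart from less RNA per cell.

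Autosomal arms of C. elegans are the parts of the chromosomes with high recombination. They are rich in repeats and in large, recently expanded gene families, carry much histone H3 methylated on lysine 9 (H3K9), and lie near the nuclear periphery. MET-2 adds the mono- and dimethyl marks on H3K9 and SET-25 the trimethyl mark. LIN-61 is a protein with MBT domains that binds methylated H3K9, and NRDE-3 is an Argonaute that carries small RNAs into the nucleus for nuclear RNA interference. The title of the series names NRDE-3 and LIN-61 as parallel routes that recruit the H3K9 trimethyl methyltransferase.

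Libraries differed in ways that touch the values on the arm. Titles of N2 and lin-61 libraries carried the prefix 875, and all other genotypes the prefix 1121. The prefix was fixed by genotype, so nrde-3 against N2 and lin-61 set-25 against lin-61 compare genotype and prefix together, and these cannot be told apart. Depth was 54839178 to 67553226 reads in N2 and lin-61 and 22275571 to 28834312 in the other genotypes. Quiet windows were those with at most 2 reads summed over the N2 and lin-61 libraries. The low values of N2 and lin-61 there are thus fixed by the choice. Reads in quiet windows, called background here, were 0.0955 to 0.361 CPM per window in nrde-3 met-2. They were 0.0017 to 0.0304 CPM in the other 5 genotypes. Whether these reads are background or RNA raised at those windows was not tested. The libraries labelled lin-61 met-2 enter the fits but no comparison. They help to estimate the spread and, in the model with the prefix as a term, the prefix effect, so that model is also given without them. Over V 1690501 to 1694000 they had a mean of 335 CPM, though their label gives no nrde-3 allele. Genotypes with that allele had means of 299 to 336 CPM there, and N2, lin-61 and lin-61 set-25 had 76.6 to 102 CPM. The cause was not tested. Doubt about the label rests on this stretch, so the stretch is no independent check of it. The table holds no gene names, so the mutated genes were not analysed here.

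Most of the arm was silent in these embryos. On CPM from column totals, without TMM, the mean level in N2 was 1.82 CPM per window, against 5.36 CPM in the middle of V, 3.82 CPM in the right end of V of the same length, and 4.99 CPM over the genome. The right end held 6.43% of the reads of N2 a, against 3.54% in N2 b and in N2 c. In the N2 mean, 3.92% of arm windows and 3.37% of right-end windows reached 10 CPM. In 8087 arm windows (68.6%) the mean stayed below 0.5 CPM in every one of the 6 genotypes. That share was not computed for other stretches. The median window in the N2 mean had 0.0290 CPM on the arm, 0.0394 in the middle of V and 0.0232 in the right end. It had 0.0812 CPM over the genome, so a low median was not particular to the arm. In 6 windows there were 0 reads in all 18 libraries. Silent windows formed long runs, of which the longest were 36.5 kb from V 2730001, 34.5 kb from V 822501 and 32.0 kb from V 2993001.

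Expressed windows were scattered between these runs. In N2, windows at 1 CPM or more formed 661 separate runs with a median of 2 windows, and 310 runs were a single window. The longest active run covered 16 kb from V 1569501 at a mean of 16.4 CPM per window, again on column totals. With TMM, the most abundant window, V 4422501, had 394, 342 and 380 CPM in the 3 N2 libraries, and the next, V 4370501, had 368, 300.1 and 381 CPM. Along the arm, the share of windows at 1 CPM or more in N2 was lowest between 3.0 and 3.5 Mb from the left end, at 5.80%, and highest in the last bin, from 5.5 Mb, at 23.6%. The arm ends in a quiet place: the window just inside the limit, V 5896501, had 0.0143 CPM in N2, and the next one, V 5897001, had 0 reads in N2.

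The arm had a smaller share of expressed windows than most of the genome. In the N2 mean, 13.9% of arm windows reached 1 CPM, against 19.9% in the middle of V, 12.5% in the right end of V, and 24.6% in the outer stretches of chromosomes I to IV that take the same share of chromosome length. The arm was below the middle of V in 18 of 18 libraries, by 8.07 ± 1.46 percentage points (SD, n = 18; exact two-sided sign-flip permutation test, adjusted p = 7.63e-06, the smallest this design can give). It was below the outer stretches of I to IV by 11.4 ± 0.587 points and above the right end of V by 1.61 ± 0.281 points, in 18 of 18 libraries each with the same p. These libraries share 1 genome, so this test speaks to libraries and not to arms of other genomes.

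The mean share of arm windows at 1 CPM or more was larger in each mutant genotype than in N2, but no difference passed its test. The middle and the right end of V and the outer stretches of I to IV were also wider in each mutant mean. The middle of V had 19.9% in N2 and 28.2% in lin-61 set-25. Of all genome windows at 1 CPM or more, the arm held 3.37 to 3.53% in the genotype means. These shares use column totals, and the mean TMM factor was 0.773 in N2 and 1.19 in lin-61 set-25. The arm share was 14.1, 13.9 and 13.7% in the N2 libraries, 15.1, 14.2 and 15.2% in lin-61, 14.6, 16.2 and 15.2% in nrde-3, and 17.7, 16.3 and 15.8% in nrde-3 set-25. The widest values were in nrde-3 met-2, at 16.9, 15.5 and 20.3%, and lin-61 set-25, at 18.3, 17.1 and 20.04%. The lin-61, nrde-3 and lin-61 set-25 libraries did not overlap their controls, while each remaining comparison overlapped. At a threshold of 5 CPM the difference of lin-61 from N2 turned to -0.0933 percentage points. With 3 libraries against 3 the exact two-sided permutation test cannot go below p = 0.10, and the adjusted p over the 6 comparisons was 0.20 for each. In nrde-3 met-2 the wider share stands beside the reads in quiet windows given above, and at 5 CPM its difference from nrde-3 was -0.0198 percentage points. The part of background in this result was not tested beyond that.

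**Figure D1:**
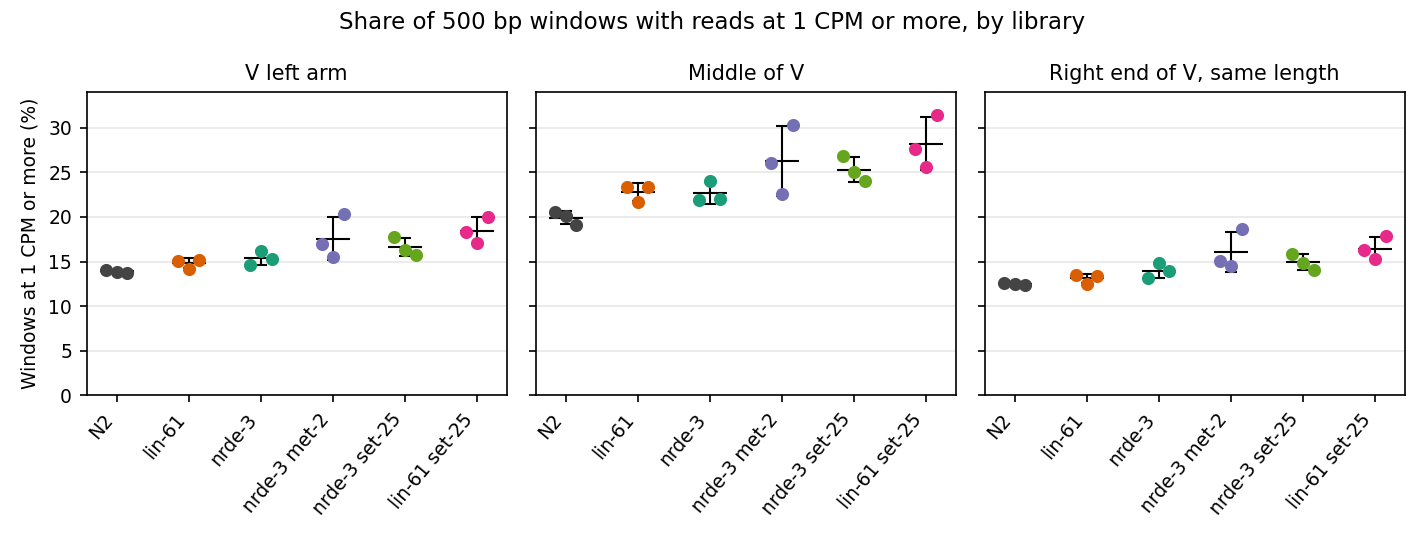
Share of 500 bp windows at 1 CPM or more (vertical axis, %) in each library of 6 genotypes, in the left arm, the middle and the right end of V; points are libraries, bars the mean and SD of 3. The arm lies below the middle of V and just above the right end in each library, and N2 has the lowest mean, 13.9% on the arm.

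The share of all reads that fell on the arm differed between genotypes by less than 1 percentage point in the means. The mean was 2.15% in N2, 2.01% in lin-61, 2.41% for nrde-3, 2.52% for nrde-3 met-2, 2.40% in nrde-3 set-25 and 2.52% in lin-61 set-25. The permutation p-values were 0.1 or above (adjusted p 0.30 to 0.90), and 0.1 is the smallest this test can give. The largest difference was lin-61 set-25 against lin-61, 0.506 percentage points, which crosses the prefixes. The lin-61 set-25 libraries (2.47 to 2.55%) did not overlap those of lin-61 (1.94 to 2.06%). They also lay above those of nrde-3 set-25 (2.34 to 2.44%), of the same prefix.

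Window by window, 3815 arm windows (32.3%) had enough reads to be tested, against 48.5% of the genome, and 7979 did not pass the filter. The highest genotype mean among the untested windows was 1.22 CPM. Differences below come from edgeR's quasi-likelihood test over 97353 windows of the genome, and calls were made at p below 0.05 after Benjamini-Hochberg adjustment. Beside each arm count stands the percentage of all tested windows called in the same direction.

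Loss of lin-61 raised 341 arm windows and lowered 99. These are 8.94% and 2.60% of the tested arm windows, against 10.5% and 2.05% over the genome, so neither share stood far from the background. The raised share was 16.7% in the middle of V, 11.2% in the right end of V and 7.80% in the outer stretches of I to IV. Raised windows joined into 127 regions, the longest 7.5 kb, and had a median log2 fold change of 2.07, with 318 at or above 2-fold. All 3 lin-61 libraries lay above all 3 N2 libraries in 338 of the 341 and in 20.3% of all tested arm windows. A fit of only the lin-61 and N2 libraries called 547 raised and 263 lowered. The counts were smaller without lin-61 a (214 raised and 56 lowered), lin-61 c (200 and 45) or N2 c (168 and 39), and without N2 a the raised count was 226.

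Several stretches rose in lin-61 by an even amount in each library. Over V 766001 to 771000 the summed level was 1.13, 1.46 and 1.30 CPM in N2 and 7.84, 9.25 and 7.45 CPM in lin-61. All 10 windows of this stretch rose, with log2 fold changes of 1.79 to 4.46. The strongest, V 766001, had 0.0943, 0.0686 and 0.0725 CPM in N2 and 1.96, 1.72 and 1.80 CPM in lin-61 (log2 fold change 4.46 ± 0.351 SE, adjusted p = 1.19e-08). The stretch had 2.02, 2.02 and 2.13 CPM in nrde-3, near N2, and 6.57, 7.65 and 10.1 CPM in nrde-3 met-2. It had 5.27, 5.67 and 6.83 CPM in nrde-3 set-25 and 10.8, 12.9 and 9.81 CPM in lin-61 set-25. High libraries were thus all those of lin-61 and of the 3 double mutants, and none overlapped N2 or nrde-3.

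A second stretch, V 3325001 to 3330500, had nearly the same values. It had 1.11, 1.17 and 1.33 CPM in N2, 7.82, 7.65 and 6.58 CPM in lin-61, and 2.54, 2.20 and 2.25 CPM in nrde-3. In 10 of its 11 tested windows the level rose in lin-61. Across the 18 libraries the ratio of V 766001 to 771000 over this stretch was 0.797 to 1.27, with a median of 1.02. Whether reads that match both places were divided between them is not given in the sources used here, so the 2 stretches cannot be treated as independent.

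Another pair, V 5078001 to 5081000 and V 5082001 to 5085000, was low in N2 alone. The first had 0.471, 0.526 and 0.386 CPM in N2, and means of 4.31 CPM in lin-61, 5.84 for nrde-3, 5.53 for nrde-3 met-2, 4.67 in nrde-3 set-25 and 5.94 in lin-61 set-25. The second had 0.509, 0.366 and 0.386 CPM in N2 and means of 2.86 to 5.21 CPM in the mutants. All 6 windows of each rose in lin-61 and in nrde-3 against N2. For nrde-3 the 6 of the first stretch were also called in the model that fits the prefix as a term, with a median log2 fold change of 3.31 in place of 3.68, and 5 of 6 in that model without the libraries labelled lin-61 met-2 (3.05).

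The named windows with the largest log2 fold changes in lin-61 had another pattern, in which levels were graded over genotypes and uneven over libraries. Windows were named only at an average log2 CPM of at least 0 over all libraries. A window low in N2 and lin-61 passes this limit only where other genotypes are high, so the grading is in part fixed by the choice. V 4435001 had 0.0377, 0.0229 and 0 CPM in N2 and 1.45, 0.287 and 1.15 CPM in lin-61 (log2 fold change 5.26 ± 0.936 SE, adjusted p = 0.000623). N2 held only 3 reads in this window, and the ratio of pooled reads was 45.1 with an exact binomial 95% interval of 15.1 to 221 that covers counting error only. The window reached 12.8, 5.17 and 7.79 CPM in nrde-3 set-25 and 35.9, 18.5 and 74.9 CPM in lin-61 set-25. V 4919001 had 1.64, 1.92 and 0.169 CPM in N2, 47.3, 21.7 and 61.7 CPM in lin-61, and 3.31, 8.76 and 4.03 CPM in nrde-3. In both windows the lin-61 libraries lay above N2, and lin-61 b was the lowest of them.

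V 4413001 and V 1171501 had 0 reads in the 3 N2 libraries, which allows up to 3 reads or 0.0217 CPM. The lin-61 libraries held 77 and 51 reads in them (means of 0.480 and 0.321 CPM). From reads pooled over the libraries of each genotype, with 3 reads taken for N2, this is at least 22.8-fold and at least 15.1-fold higher. V 5804001 had 0.132, 0.114 and 0.0242 CPM in N2 and 3.23, 1.46 and 3.31 CPM in lin-61 (log2 fold change 4.78 ± 0.562 SE, adjusted p = 9.34e-06). Its neighbours moved with it: over V 5802001 to 5804500 all 5 windows rose in lin-61, in nrde-3, in nrde-3 set-25 against nrde-3 and in lin-61 set-25 against lin-61. For nrde-3 against N2 only 2 of the 5 were called without nrde-3 b or without N2 a. That comparison and lin-61 set-25 against lin-61 cross the prefixes. The summed means of the stretch were 0.308 CPM in N2, 2.14 in nrde-3, 7.10 in lin-61, 14.4 in nrde-3 set-25 and 31.2 in lin-61 set-25.

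**Figure D2:**
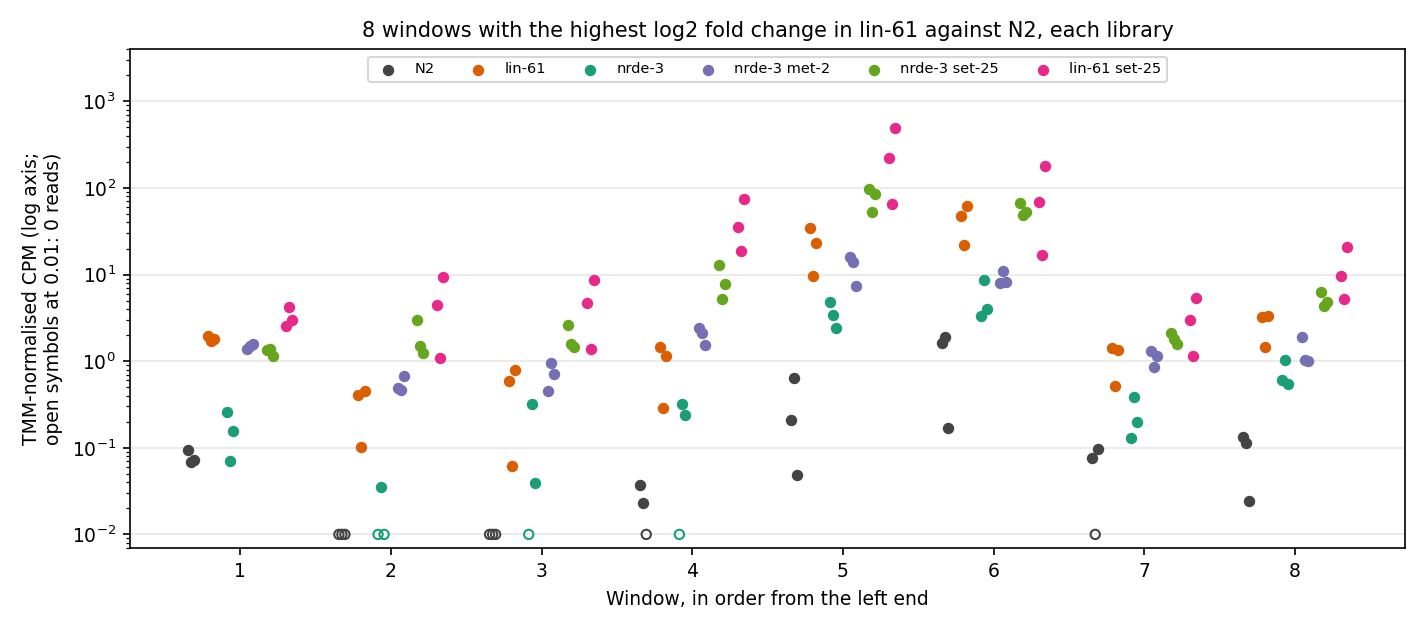
Level of the 8 named arm windows with the highest log2 fold change in lin-61 against N2. Windows run in order from the left end (horizontal axis), and the vertical axis is TMM-normalised CPM on a log scale. Windows were named at an average log2 CPM of at least 0 over all libraries. Each point is a library, and open points at 0.01 mark 0 reads. Window 1 is V 766001, where libraries of a genotype lie close together; in the other 7, lin-61 set-25 spreads widely.

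The order of libraries within a genotype recurred over the called windows. Among the 341 windows raised in lin-61, lin-61 b was the lowest lin-61 library in 242 (71.0%), against 33.2% of all tested arm windows. N2 c was the lowest N2 library in 199 of them (58.4%), against 29.5%. The library lin-61 b also had the smallest expressed share of the arm among the lin-61 libraries (14.2%) and N2 c the smallest in N2 (13.7%). The part of this library order in the calls was not tested. The longest raised region, V 5303501 to 5311000, followed it, with 8.82, 8.94 and 3.19 CPM in N2 and 40.0, 30.1 and 41.1 CPM in lin-61. There 13 of 14 tested windows rose, and 9 without N2 c.

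V 3887501 to 3894500 was highest in lin-61 alone. It had 137, 123 and 152 CPM in N2 and 253, 290 and 238 CPM in lin-61, and means of 86.6 to 115 CPM in the other 4 genotypes. In 10 of 13 tested windows the level rose in lin-61 (median log2 fold change 0.98), but without N2 c only 1 of them was called, at a median of 0.99.

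The share of windows lowered in lin-61 was highest between 2.0 and 2.5 Mb, at 11.9% of tested windows against 2.60% on the whole arm. Just beyond that bin, V 2556001 had 3.66, 5.80 and 5.10 CPM in N2 and 1.35, 1.07 and 1.28 CPM in lin-61 (log2 fold change -1.97 ± 0.343 SE, adjusted p = 0.000515), and 0.947, 0.710 and 0.276 CPM in nrde-3. Over V 2476501 to 2481500 the level was 22.8, 21.6 and 28.4 CPM in N2, 8.21, 9.45 and 7.30 CPM in lin-61 and 6.71, 7.31 and 7.42 CPM in nrde-3. All 8 tested windows fell in lin-61, and 7 of 8 fell in nrde-3. N2 stood above each of the other 5 genotypes over this stretch, whose means were 5.32 to 12.2 CPM.

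In the fit without prefix, more arm windows were lower than higher in nrde-3, as over the genome. Against N2, 135 arm windows (3.54%) were higher and 349 (9.15%) lower, beside 3.94% and 8.25% over the genome. This comparison crosses the prefixes. In the model with the prefix as a term, 86 were higher and 28 lower, of which 36 and 24 were called in both fits. That model without the libraries labelled lin-61 met-2 called 50 higher and 46 lower. The count of higher windows also fell to 77, 70, 85, 67 and 57 without nrde-3 a, nrde-3 b, N2 a, N2 b and N2 c. Of the 349 lower windows, 234 (67.0%) were also lower in lin-61 set-25 against lin-61, 50.2% of the 466 lower there. Those comparisons share no library, but both set prefix 1121 against prefix 875.

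One stretch was high in the genotypes labelled with the nrde-3 allele. V 1690501 to 1694000 had 65.7, 76.8 and 87.3 CPM in N2, 80.5, 94.9 and 79.0 CPM in lin-61, and 121, 122 and 61.8 CPM in lin-61 set-25. It had 282, 273 and 341 CPM in nrde-3, 431, 351 and 226 CPM in nrde-3 met-2 and 256, 354 and 365 CPM in nrde-3 set-25. These 9 libraries lay above the 9 of N2, lin-61 and lin-61 set-25. The libraries labelled lin-61 met-2, which lack the allele by their label, had 387, 292 and 325 CPM, so the order by allele holds only when they are set aside. All 7 windows rose in nrde-3 (median log2 fold change 1.84). For V 1692501 the log2 fold change was 2.33 ± 0.294 SE (adjusted p = 9.78e-06), and it was 0.98 with an adjusted p of 0.255 in the prefix model, in which the 7 log2 fold changes were 0.63 to 1.21. In the prefix model without the libraries labelled lin-61 met-2 they were 1.51 to 1.99 and 6 of 7 were called. Within prefix 1121, nrde-3 set-25 was above lin-61 set-25 in 6 of the 7 windows, and at V 1693501 the log2 fold change was 1.83 ± 0.231 SE (adjusted p = 6.95e-05).

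The densest block of lower windows lay between 2.0 and 2.5 Mb, where 28.7% of tested windows were lower in nrde-3 than in N2. Over V 2131501 to 2140000 the level was 49.0, 37.5 and 43.6 CPM in N2, 54.6, 53.5 and 49.7 CPM in lin-61 and 6.11, 11.4 and 13.5 CPM in nrde-3. In 16 of 17 windows it fell. It was 8.86, 11.1 and 10.6 CPM in nrde-3 set-25 and 23.8, 17.2 and 34.1 CPM in lin-61 set-25, so every genotype of prefix 1121 was below N2 and lin-61, and in the prefix model the median log2 fold change was -0.76 in place of -1.85, with V 2135001 at -0.11 (adjusted p = 0.926). Without the libraries labelled lin-61 met-2 the prefix model gave a median of -1.14 and called 2 of the 17. Within prefix 1121, 6 of 17 windows were lower in nrde-3 set-25 than in lin-61 set-25.

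A pair of short stretches, among the longest that were lower in nrde-3 set-25 than in lin-61 set-25, held almost no reads in nrde-3 and nrde-3 set-25. V 2351501 to 2353000 had 3.13, 3.27 and 1.84 CPM in N2, 1.21, 0.902 and 1.57 CPM in lin-61 and 1.42, 0.747 and 3.69 CPM in lin-61 set-25. It had 0 reads in the 3 nrde-3 libraries, which allows up to 0.0391 CPM, and 0.0703, 0.0713 and 0 CPM in nrde-3 set-25. The other, V 2459501 to 2461000, had means of 2.75 CPM in N2, 0.0143 in nrde-3 and 2.10 in lin-61 set-25. Levels in nrde-3 met-2, 0.494, 0.215 and 0.710 CPM at the first stretch, lie within a genotype of high background.

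**Figure D3:**
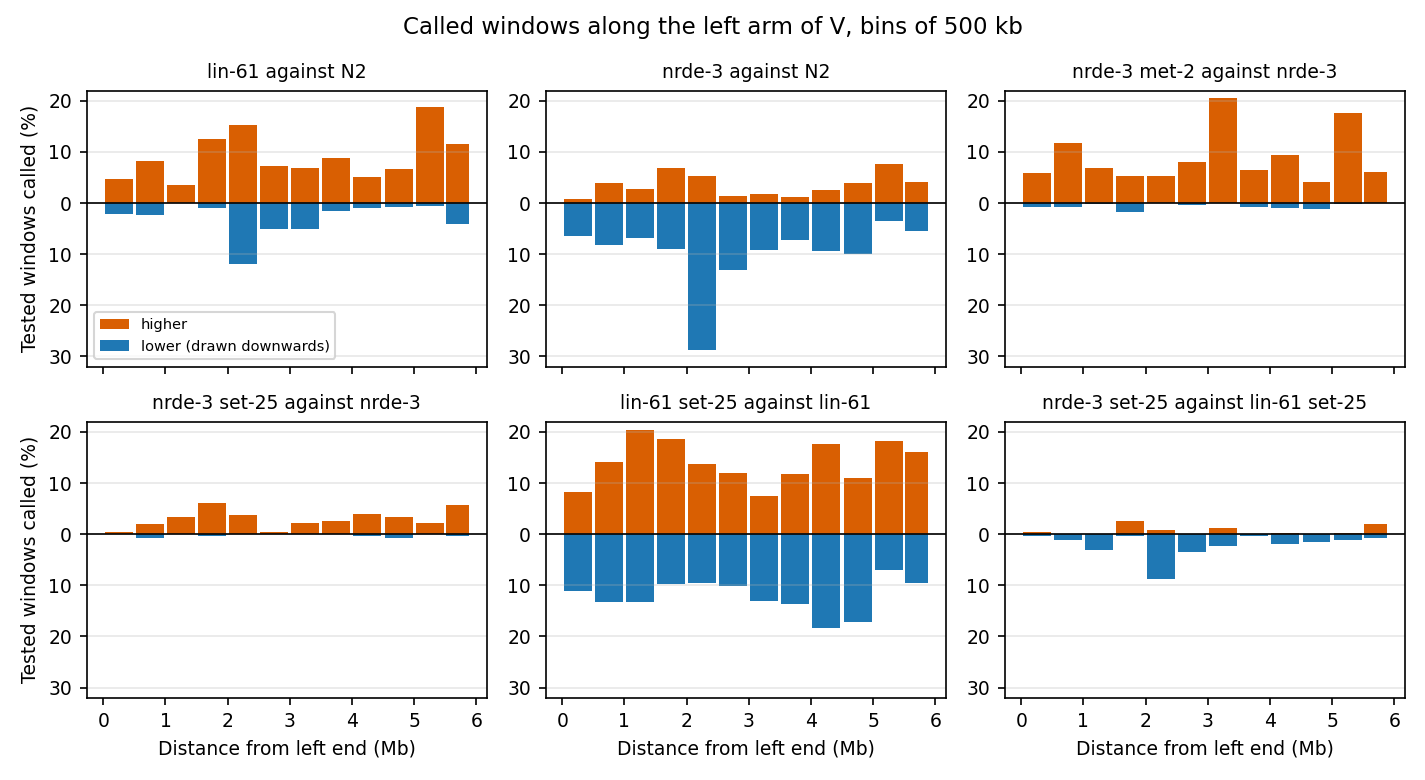
Percentage of tested windows called higher (upwards) and lower (downwards) in 6 comparisons, in bins of 500 kb by distance from the left end of V (Mb). The bin from 2.0 to 2.5 Mb holds the largest lower share in nrde-3 against N2 (28.7%) and in lin-61 against N2 (11.9%).

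Loss of set-25 in nrde-3 raised a small group of windows and lowered hardly any. Against nrde-3, 116 arm windows (3.04%) rose and 8 (0.210%) fell, beside 2.46% and 0.232% over the genome, and both genotypes carry prefix 1121. The 3 nrde-3 set-25 libraries lay above the 3 nrde-3 libraries in all 116 and in 15.96% of all tested arm windows. Their median log2 fold change was 2.55. Fewer were called without nrde-3 a (62), nrde-3 b (65), nrde-3 c (35), nrde-3 set-25 a (42) or nrde-3 set-25 c (72). The library nrde-3 set-25 a was the highest of its genotype in 81 of the 116 (69.8%), against 37.0% of tested arm windows, and also had the widest expressed share of the arm (17.7%). Its part in the result was not tested.

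The strongest of these windows were silent or nearly so in nrde-3. V 1171501 had 0, 0.0355 and 0 CPM in nrde-3 and 3.02, 1.497 and 1.23 CPM in nrde-3 set-25, a ratio of 152 with a counting interval of 26.8 to 6026 on 1 read in nrde-3. V 4121501 had 0.0861, 0.106 and 0.158 CPM in nrde-3 and 2.64, 1.71 and 3.92 CPM in nrde-3 set-25 (log2 fold change 4.50 ± 0.680 SE, adjusted p = 0.000847). V 1989501 to 1993000 had 2.15, 2.20 and 1.90 CPM in nrde-3, 21.4, 11.7 and 16.5 CPM in nrde-3 set-25, and 36.6, 18.7 and 74.2 CPM in lin-61 set-25. Of its 6 tested windows 5 rose in nrde-3 set-25 and 6 in lin-61 set-25.

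Most windows raised by the loss of set-25 were also raised in lin-61. Of the 116, 90 (77.6%) rose in lin-61 against N2, which uses no library of the other comparison, and they made up 26.4% of the 341 raised there. Among all tested arm windows 8.94% rose in lin-61. Both comparisons share the filter and the fit over 21 libraries. Windows low in N2 and nrde-3 passed that filter only where other genotypes were high. All tested arm windows are therefore no matched baseline for the 116. Over the 116 windows the median level was 0.104 CPM in N2, 0.257 for nrde-3, 0.617 for nrde-3 met-2, 0.775 in lin-61, 1.41 in nrde-3 set-25 and 2.71 in lin-61 set-25. The order of nrde-3 and nrde-3 set-25 was fixed by the choice of these windows. The nrde-3 met-2 value includes high background, with a mean of 0.194 CPM in quiet arm windows on column totals. The lin-61 set-25 mean was above the nrde-3 set-25 mean in 103 of the 116. That count was not made over all tested arm windows, so it cannot be read as particular to the 116. Over all tested arm windows the median log2 fold change of nrde-3 set-25 against lin-61 set-25 was -0.0726. For lin-61 against N2, the median log2 fold change of the 116 windows was 2.65, against -0.04 for all tested arm windows.

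The 8 lower windows were weakly held. V 1559001 had 1.33, 2.87 and 3.63 CPM in nrde-3 and 1.09, 1.10 and 1.14 CPM in nrde-3 set-25 (log2 fold change -1.24 ± 0.299 SE, adjusted p = 0.0262). V 4756501 had 4.95, 4.79 and 6.08 CPM in nrde-3 and 2.39, 2.24 and 2.23 CPM in nrde-3 set-25 (-1.20 ± 0.278 SE, adjusted p = 0.0209). Without nrde-3 c, edgeR called 0 arm windows lower, with 108 at an unadjusted p below 0.05, and DESeq2 on all libraries called 22. Leaving out nrde-3 b gave 3 and nrde-3 a gave 14, while leaving out nrde-3 set-25 a, b or c gave 2, 2 and 3.

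Loss of set-25 in lin-61 went with many windows in both directions. Against lin-61, 544 arm windows (14.3%) were higher and 466 (12.2%) lower, beside 13.4% and 13.3% over the genome. The comparison crosses the prefixes, and no fit with prefix as a term was made for it. The median log2 fold change of all tested windows was 0.10 here, and 0.16 with RLE scaling, so changes are best read against that shift. Without lin-61 b the higher count was 335, and without lin-61 set-25 c it was 285. The library lin-61 set-25 c, which had the widest expressed share of its genotype (20.04%), was its highest in 365 of the 544 windows (67.1%), against 39.7% of tested arm windows. This part was not tested. By the test of the difference, the signed log2 fold change of set-25 loss was higher in nrde-3 than in lin-61 at 190 arm windows (4.98%). It was lower at 80 (2.10%), beside 6.07% and 2.80% over the genome. A higher value can also come from a fall in lin-61 set-25 without a rise in nrde-3 set-25.

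Many of the graded windows were highest in lin-61 set-25. Named windows that were low in lin-61 met the limit on average level through genotypes where they are high, so this order is in part fixed by the choice. V 4435501 had 1.33, 0.205 and 0.846 CPM in lin-61 and 36.3, 26.6 and 81.6 CPM in lin-61 set-25 (log2 fold change 5.91 ± 0.508 SE, adjusted p = 1.91e-08). It had 11.7, 5.88 and 9.15 CPM in nrde-3 set-25, so that lin-61 set-25 was above both its parent and the other set-25 genotype in every library. V 899001 to 904000, by contrast, was even: it had 50.4, 49.5 and 47.5 CPM in lin-61 and 139, 170 and 117 CPM in lin-61 set-25, and all 8 tested windows rose. Its other means were 47.2 CPM in N2, 65.8 for nrde-3, 75.6 for nrde-3 met-2 and 84.3 in nrde-3 set-25. Of the 116 windows raised in nrde-3 set-25, 79 (68.1%) were also raised in lin-61 set-25.

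The largest falls in lin-61 set-25 were seen in the whole of prefix 1121. V 1157501 had 111, 107 and 129 CPM in N2 and 107, 152 and 136 CPM in lin-61, and 24.4, 15.1 and 14.3 CPM in lin-61 set-25 (log2 fold change -2.88 ± 0.231 SE, adjusted p = 9.77e-09). It had 22.9, 30.9 and 23.7 CPM in nrde-3 and 26.3, 36.8 and 30.6 CPM in nrde-3 set-25. Over V 4300501 to 4311000, the longest lower region at 10.5 kb, the mean fell from 167 CPM in lin-61 to 68.4 CPM in lin-61 set-25, and it was 142 CPM in N2 and 75.6 to 92.1 CPM in the other prefix 1121 genotypes. V 1017501, V 1262501, V 1875501 and V 3701501 were also lower in every library of prefix 1121 than in every library of prefix 875.

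Loss of met-2 in nrde-3 raised 320 arm windows (8.39%) and lowered 24 (0.629%), beside 6.67% and 0.833% over the genome. Raised windows were short, in 230 regions of which 36 had more than 1 window, and had a median log2 fold change of 3.48. After the mean count of the quiet windows was subtracted, 123 were raised. That step treats all reads in quiet windows as background, which was not tested. Leaving out nrde-3 a, b or c gave 708, 692 and 648, and 965 were raised without nrde-3 met-2 b, the library with the lowest background. The lowered count was 12 without the libraries labelled lin-61 met-2. Leaving out nrde-3 a or nrde-3 b gave 82 and 63, and leaving out nrde-3 met-2 a, b or c gave 10, 156 and 69.

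A few long stretches stood far above that background. Over V 3434501 to 3441500 the level was 0.861, 0.781 and 0.790 CPM in nrde-3 and 231, 11.4 and 103 CPM in nrde-3 met-2. All 14 windows rose (median log2 fold change 7.36), and all 14 were called after background subtraction and without any 1 library. V 4333001 to 4337000 had 0.172, 0.213 and 0.395 CPM in nrde-3 and 54.7, 22.9 and 47.5 CPM in nrde-3 met-2, and V 5073001 to 5077000 had 1.76, 2.91 and 2.65 CPM and 63.0, 167 and 53.2 CPM. All 8 windows of each rose. In the other 5 genotypes the means of these 3 stretches were at most 7.93 CPM, and nrde-3 met-2 stood above every other library used here, with a spread among its own libraries that the means do not show.

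The size of some changes rested on nrde-3 met-2 b. V 3099001 had 0.387, 0.319 and 0.197 CPM in nrde-3 and 3.76, 103 and 7.34 CPM in nrde-3 met-2, and V 658001 had 0.215, 0.319 and 0.0395 CPM and 2.77, 58.4 and 3.79 CPM. Their log2 fold changes were 6.96 and 6.77, and 4.09 and 3.95 without nrde-3 met-2 b. Both windows were still called without that library (edgeR, adjusted p = 0.0229 and 0.0207). V 3099001 also rose in lin-61 set-25 against lin-61, where only lin-61 set-25 a was high (5.88, 0.112 and 0.0658 CPM), and that call was lost without it (adjusted p = 0.583). The even stretches described for lin-61 were raised here too: 8 of 10 windows of V 766001 to 771000 rose in nrde-3 met-2.

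**Figure D4:**
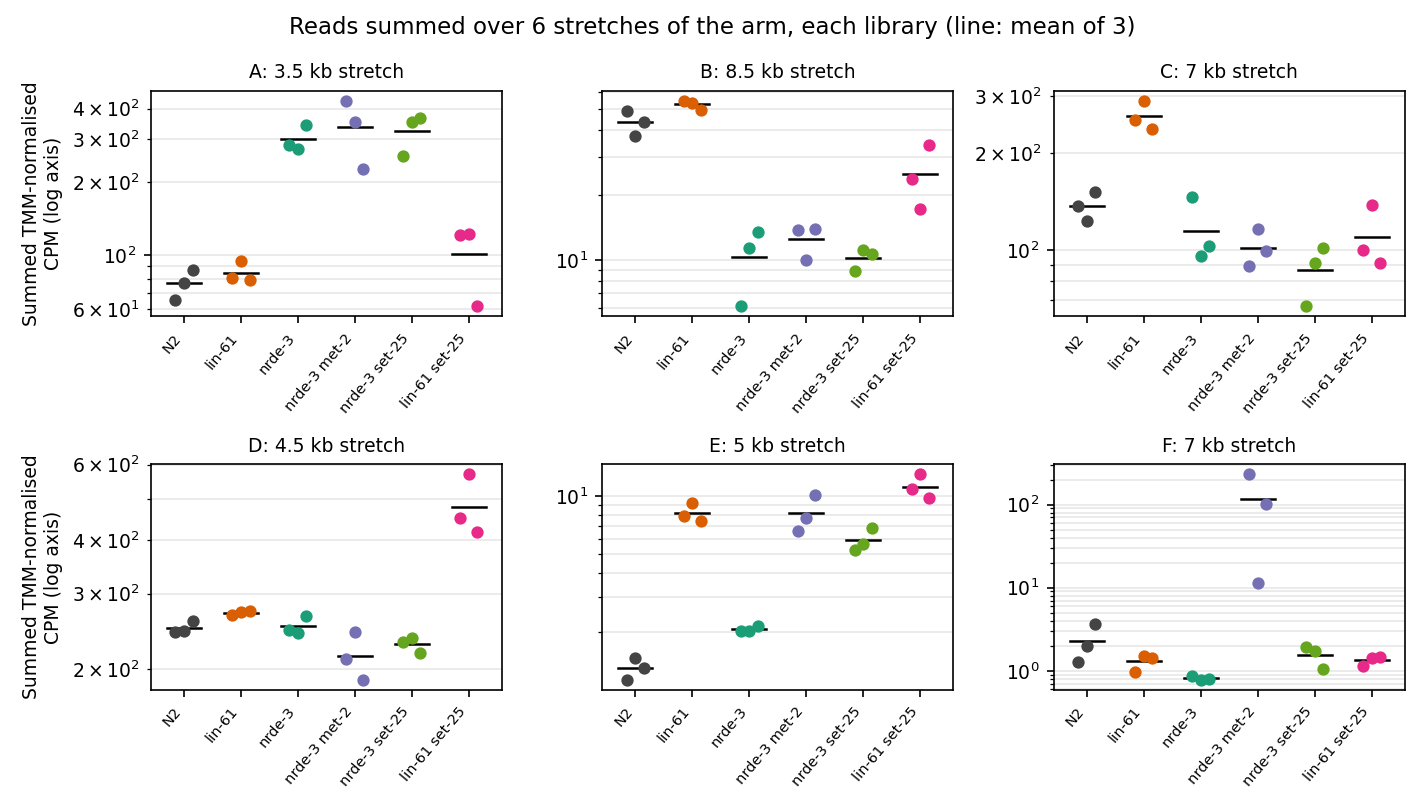
Reads summed over 6 stretches of the arm (vertical axis, TMM-normalised CPM, log scale) in each library of 6 genotypes; lines mark the mean of 3. Stretch A starts at V 1690501, B at V 2131501, C at V 3887501, D at V 1044001, E at V 766001 and F at V 3434501. The nrde-3 genotypes are high in A and low in B, lin-61 is high in C, lin-61 set-25 in D and nrde-3 met-2 in F, and N2 and nrde-3 are low in E.

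The set-25 double mutants, both of prefix 1121, differed from each other at few arm windows. Against lin-61 set-25, 23 windows (0.603%) stood higher in nrde-3 set-25 and 74 (1.94%) lower, beside 0.612% and 1.67% over the genome. A fit of only these 6 libraries called 4 higher and 1 lower. Many calls also rested on few libraries: 7 were higher and 23 lower without lin-61 set-25 c, and 39 and 220 without lin-61 set-25 b. They were 8 and 18 when nrde-3 set-25 b was left out and 8 and 21 when nrde-3 set-25 c was, and 48 were lower when nrde-3 set-25 a was.

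The longest called region between them was V 1044001 to 1048500. It had 231, 236 and 218 CPM in nrde-3 set-25 and 450, 570 and 417 CPM in lin-61 set-25, and 7 of its 9 windows were lower in nrde-3 set-25. Its means were 250 CPM in N2, 270 in lin-61, 252 for nrde-3 and 215 for nrde-3 met-2, so that lin-61 set-25 stood alone and its parent lin-61 was near N2. In a fit of only these 6 libraries the median log2 fold change was -1.06 in place of -1.05, and the calls were lost. V 2137501 had 0.246, 0.428 and 0.228 CPM in nrde-3 set-25 and 1.26, 1.01 and 2.27 CPM in lin-61 set-25 (log2 fold change -2.30 ± 0.431 SE, adjusted p = 0.00414), and its adjusted p was 0.0506 without lin-61 set-25 c.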

How the data were processed

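The authors deposited raw read counts per 500 bp window, with build ce10 per the submitters' processing notes. The aligner, the counter and the treatment of reads with several matches are not given in the sources used here. Columns named by genotype and a, b or c were matched to groups, and 6 columns that match no sample were not used. Library depth was 22275571 to 67553226 reads. A count of 0 over 3 libraries allows up to 3 reads, and exact binomial 95% intervals and this floor cover counting error only.

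The quasi-likelihood model of edgeR 4.0.16 (R 4.3.3; glmQLFit, glmQLFTest) was fitted to 21 libraries after filterByExpr at a minimum count of 10 and TMM scaling, with 1 coefficient per genotype and 14 residual degrees of freedom, and p-values were adjusted over 97353 windows. A region is a run of windows called in 1 direction, with single uncalled windows bridged. Shares of reads and of windows used column totals and exact permutation tests. The pipeline was tested on simulated data.

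Alternatives were DESeq2 1.42.0, RLE scaling, no filter, only the libraries compared, background subtraction (the mean count of 32328 quiet windows), an additive model with the title prefix, and leaving out each library. Leaving out the 3 lin-61 met-2 and 3 nrde-3 met-2 libraries together, and the prefix model without the lin-61 met-2 libraries, were chosen after seeing the data. Named windows were the 8 highest and 5 lowest log2 fold changes per comparison (5 and 5 between the double mutants), 1 per region, among called windows with non-overlapping groups and an average log2 CPM of at least 0, with the 5 longest regions each way. Members and lists were chosen with earlier results of these data known. Gene names and sequences were not used here, since the annotation at hand is of another build. Figures used Python 3.11.15 and matplotlib 3.10.9.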

Additional observations from a re-analysis of the deposited data

Results flagged for a closer look

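The effect of set-25 loss differed between the nrde-3 and lin-61 backgrounds at some arm windows by the test of the difference itself (edgeR, adjusted p below 0.05). The signed log2 fold change was higher in nrde-3 at 190 windows (4.98% of those tested) and lower at 80 (2.10%), beside 6.07% and 2.80% over the genome. The sign of this difference does not give which background had the larger effect. The lin-61 parent carries prefix 875 and the other 3 genotypes prefix 1121, so background and prefix cannot be told apart in this difference.

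At V 766001 the log2 fold change was 3.005 in nrde-3 and 0.83 in lin-61, a difference of 2.17 ± 0.451 SE (adjusted p = 0.0032). The lin-61 parent was already at 1.72 to 1.96 CPM there, against 0.071 to 0.258 CPM in nrde-3. At V 4756501 it was -1.20 in nrde-3 and 0.42 in lin-61, a difference of -1.62 ± 0.386 SE (adjusted p = 0.0090).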

How the results depend on the processing

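No paired analysis was possible because the column letters carry no replicate numbers from the titles. Of 1010 values of named windows under alternatives, 922 kept their direction and side of the threshold, 84 kept direction only and 4 reversed. Those were V 4423001 (-1.54) and V 3701501 (0.24) for nrde-3 against N2 in the prefix model, which also gave 86 higher and 28 lower windows, and the same windows (-0.19 and 0.70) in that model without the lin-61 met-2 libraries, which gave 50 higher and 46 lower. Fitting only the libraries compared gave 547 higher and 263 lower for lin-61 against N2, 149 higher for nrde-3 met-2, 14 lower for set-25 loss in nrde-3, and 4 higher and 1 lower between the double mutants. It gave 0 lower for nrde-3 met-2 by edgeR, with 46 at an unadjusted p below 0.05, where DESeq2 on all libraries gave 54. DESeq2 gave 22 lower for set-25 loss in nrde-3 and 126 lower between the double mutants. With no filter, nrde-3 met-2 had 3448 higher and 450 lower, and the double mutants 121 lower. With background subtracted nrde-3 met-2 had 123 higher, and without the lin-61 met-2 libraries 12 lower. The cause was not tested.

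Differences in the share of reads that reversed were -0.0805 percentage points for nrde-3 against N2 and 0.0541 for set-25 loss in nrde-3, both without windows at 1000 CPM or more, and -0.00812 for nrde-3 met-2 with background subtracted. At 5 CPM the expressed share reversed to -0.0933 points for lin-61 against N2 and -0.0198 for nrde-3 met-2. The log2 ratio of the arm to the rest of V, without windows at 1000 CPM or more, reversed to -0.0399 for nrde-3 against N2, 0.0540 for nrde-3 met-2, -0.0229 for lin-61 set-25 against lin-61 and 0.0287 between the double mutants. The cause was not tested.

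Leaving out 1 library gave 168 to 300 higher and 39 to 93 lower windows for lin-61 against N2, and 57 to 98 higher for nrde-3 against N2. It gave 220 to 965 higher and 10 to 156 lower for nrde-3 met-2, and 35 to 94 higher and 0 to 14 lower for set-25 loss in nrde-3 (edgeR, with 108 at an unadjusted p below 0.05 at the lowest and 22 by DESeq2). It gave 285 to 587 higher for lin-61 set-25 against lin-61, and 7 to 39 higher and 18 to 220 lower between the double mutants. The share of reads ranged from -0.105 to 0.0304 points for set-25 loss in nrde-3, and the log2 ratio from -0.0891 to 0.0792 for nrde-3 met-2. The filter on low counts left 7979 arm windows untested, so the counts say nothing of differences there.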
